A study of Mus musculus with 8 samples.

Results

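Immune checkpoint receptors and their ligands were followed through the cells of 2 mouse lung tumors. The 10 genes were chosen by symbol and are 10 of the 27923 genes in the tables: the ligands Cd274 (PD-L1), Pdcd1lg2 (PD-L2), Cd80 and Cd86, and the receptors Pdcd1 (PD-1), Ctla4, Icos, Lag3, Tigit and Havcr2 (TIM-3). All 10 were detected. The tumors came from a genetically engineered model of lung adenocarcinoma, p53 fl/fl in every animal, as chimeric mice made from engineered C57BL/6 embryonic stem cells in albino C57BL/6 blastocysts. Recombination was started at 12 weeks of age by an adenovirus that expresses Cre from the SPC promoter, which is active in alveolar type II cells of the lung, and lungs were taken 16 weeks later. Recombination is limited to cells that the virus reaches and in which that promoter is active, and the tables do not mark which cells descend from the embryonic stem cells and which from the host embryo. There was 1 tumor from each of 2 mice, 1 male and 1 female. Slices were stained with calcein NVOC, a dye that fluoresces only after near-ultraviolet light removes a chemical cage, and the edge between healthy and tumor tissue was illuminated.

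Cells sorted for the uncaged dye made up 1 Healthy/Tumor Border library per tumor, and cells that had not been photoactivated made up 3 Whole Tumor arrays per tumor, all profiled by Seq-Well, a microwell method that reads the 3′ ends of messenger RNA and counts molecules by unique molecular identifiers (UMIs). The Whole Tumor of a given animal was loaded on its 3 arrays, so these are technical replicates and the animal is not replicated. Of 4343 deposited barcodes, the 3894 with at least 200 genes were kept, with 374369 to 2019162 UMIs per library and a median of 675.5 to 2525.5 UMIs per barcode. The lowest median belonged to Whole Tumor array 2 of Tumor 2. The median share of mitochondrial UMIs was 2.92% to 6.57%. A total of 10 barcode sequences occurred in more than 1 library and accounted for 56 entries. The cell names inside the tables carry the other tumor's number in all 8 libraries, and the sample labels were followed. The numbers of barcodes deposited under the labels are those that the study's methods give for each tumor and region. Xist, which is transcribed in female cells, stood at 405 to 608 counts per 1000000 UMIs (CPM) in the Tumor 1 libraries and 1.36 to 2.67 CPM in those of Tumor 2. Tumor, animal and sex therefore cannot be told apart.

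Each barcode was placed in the class with most of its 8 markers detected, given at least 2 and no tie, which gave 2890 barcodes in 16 classes. A further 611 barcodes carried mainly satellite repeats and 393 stayed ungated. For 23 held-out genes not used for gating, the level in their own class was set against all other classes pooled. Some of these own classes were joined ones, such as dendritic-like with B-like. Of these genes 23 of 23 were higher in their own class. They were chosen with earlier results of these data known, so this outcome is no independent test of the labels. Classes are called by marker-defined names such as neutrophil-like throughout. Neutrophil-like barcodes were the most frequent with 1607, followed by 560 macrophage-like barcodes (286 C1q and 110 alveolar among them), 223 tumor epithelial-like, 137 B-like, 94 dendritic-like, 56 T-like, 53 ILC2-like and 32 NK-like barcodes. The Tumor 1 Border library held 412 neutrophil-like and 5 macrophage-like barcodes, while the Tumor 2 Border library held 103 and 164.

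PD-1, encoded by Pdcd1, binds PD-L1 and PD-L2 and dampens signalling from the antigen receptor. Cd80 and Cd86 on antigen-presenting cells costimulate T cells through Cd28, and CTLA-4 competes with Cd28 for both ligands. ICOS is a costimulatory receptor related to Cd28, LAG-3 binds MHC class II, TIGIT binds Pvr and Nectin-2 (Pvrl2), and TIM-3 has galectin-9 (Lgals9) and Ceacam1 among its ligands. Interferon gamma, through Jak kinases and Irf1, is a well-known inducer of PD-L1. Antibodies against several of these proteins are used in lung cancer.

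The 10 genes lie at few places in the mouse genome (GRCm38 gene annotation). Cd274 (chr19:29367455-29388095, plus strand) and Pdcd1lg2 (chr19:29410919-29471161, plus strand) are neighbours 22823 bases apart, and Ctla4 (chr1:60887000-60915832, plus) and Icos (chr1:60977927-61000320, plus) are 62094 bases apart. Cd80 (chr16:38455561-38496335, plus) and Cd86 (chr16:36603869-36666081, minus) share a chromosome with Tigit (chr16:43648867-43664146, minus). Pdcd1 lies at chr1:94038305-94052553 (minus), Lag3 at chr6:124904361-124911705 (minus) and Havcr2 at chr11:46454935-46481255 (plus). An antisense gene, A930007I19Rik, overlaps Pdcd1lg2 and has its own row in the tables.

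Promoters (250 bases before to 50 after the start, RefSeq, GRCm38.p6) were found for 7 of the 10 genes. Those of Cd274, Pdcd1lg2 and Cd80 are shown because these ligands were read most in the same neutrophil-like and dendritic-like barcodes and yet differed in level between libraries. Capitals mark matches, on either strand, to 4 short motifs: a GAS element (TTCNNNGAA, in 8.30% of all 32851 promoters of the same length), an ISRE core (GAAANNGAA, 8.56%), an AP-1 element (TGANTCA, 7.81%) and a kappa B core (GGNNNTTCC, 18.5%). The Cd274 window holds 1 ISRE core match at base 175, Pdcd1lg2 holds none of the 4, and Cd80 holds 1 kappa B core match at base 42 and 1 AP-1 match at base 209, counted from the 5′ end of each window. These are letter matches only.
Cd274 (chr19:29367188-29367487, plus strand): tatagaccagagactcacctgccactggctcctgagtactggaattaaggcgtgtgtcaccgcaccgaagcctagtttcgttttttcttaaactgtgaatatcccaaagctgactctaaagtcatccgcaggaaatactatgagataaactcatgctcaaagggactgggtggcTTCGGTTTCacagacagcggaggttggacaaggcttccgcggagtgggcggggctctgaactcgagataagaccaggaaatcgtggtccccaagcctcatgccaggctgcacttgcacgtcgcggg
Pdcd1lg2 (chr19:29410669-29410968, plus strand): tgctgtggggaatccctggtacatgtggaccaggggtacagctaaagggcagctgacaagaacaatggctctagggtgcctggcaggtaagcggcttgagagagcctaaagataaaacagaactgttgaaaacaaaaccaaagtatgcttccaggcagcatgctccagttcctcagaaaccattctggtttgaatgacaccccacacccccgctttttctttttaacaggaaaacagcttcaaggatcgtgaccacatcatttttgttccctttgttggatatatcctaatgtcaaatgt
Cd80 (chr16:38458683-38458982, plus strand): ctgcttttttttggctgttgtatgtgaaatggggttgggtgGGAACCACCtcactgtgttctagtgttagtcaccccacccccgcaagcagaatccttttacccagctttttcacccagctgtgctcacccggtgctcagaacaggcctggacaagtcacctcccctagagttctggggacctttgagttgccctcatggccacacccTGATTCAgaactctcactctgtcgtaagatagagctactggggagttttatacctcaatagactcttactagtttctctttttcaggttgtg
Of the other windows, Ctla4 holds 1 ISRE core match, Havcr2 holds 1 AP-1 and 1 kappa B core match, and Pdcd1 and Tigit hold none.

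The first question was which cells of the tumor hold the ligand transcripts. Levels are UMIs of a gene as CPM of the class, summed over libraries, and shares are barcodes with at least 1 UMI. Summed this way, Cd274 was highest in neutrophil-like barcodes, with 5905 UMIs, 1558 CPM and 65.6% of barcodes positive (1054 of 1607). Mature dendritic-like barcodes followed at 928 CPM and 75% positive, then alveolar macrophage-like (518 CPM), and lower levels stood in conventional dendritic-like (227 CPM), C1q macrophage-like (216 CPM), B-like (207 CPM) and monocyte-like barcodes (132 CPM). From conventional dendritic-like down to B-like barcodes the exact 95% Poisson intervals of the levels overlapped, for example 192 to 243 CPM in C1q macrophage-like and 161 to 262 CPM in B-like barcodes, so their order is not resolved. Intervals here cover counting error only. The C1q macrophage-like level was 122 CPM in the Tumor 2 Border. In the Whole Tumor arrays it ran from 204 to 381 CPM in Tumor 2 and from 314 to 571 CPM in Tumor 1. Its pooled value therefore depends on the libraries summed. The Tumor 1 Border, which held no mature dendritic-like barcodes, gave 2808 of the 5905 neutrophil-like UMIs. In the other 7 libraries neutrophil-like barcodes exceeded mature dendritic-like barcodes in 5, but not in Whole Tumor array 2 (1267 against 1520 CPM) and array 3 (966 against 1135 CPM) of Tumor 1, where the intervals of both classes overlapped. Keratin-expressing tumor-like barcodes were at 29.6 CPM with 6.02% positive, and 0 of 40 fibroblast-like barcodes held a Cd274 UMI, which by the floor of 3 counts allows a share of barcodes with a UMI of up to 7.50%. Median depth was 2088 UMIs per barcode in neutrophil-like, 2858 in keratin tumor-like and 2284 in fibroblast-like barcodes. Barcodes with at least 1000 UMIs were also thinned to that depth, with shallower barcodes left out. Among them the expected positive share was 57.2% in neutrophil-like, 49.1% in mature dendritic-like and 15.4% in C1q macrophage-like barcodes.

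Of all 7578 Cd274 UMIs in kept barcodes, 77.9% were in neutrophil-like and 9.53% in macrophage-like barcodes, and by library the neutrophil-like share ran from 50.7% in the Tumor 2 Border to 91.5% in the Tumor 1 Border. The plot of levels by class sets the 10 genes beside each other.

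**Figure D1:**
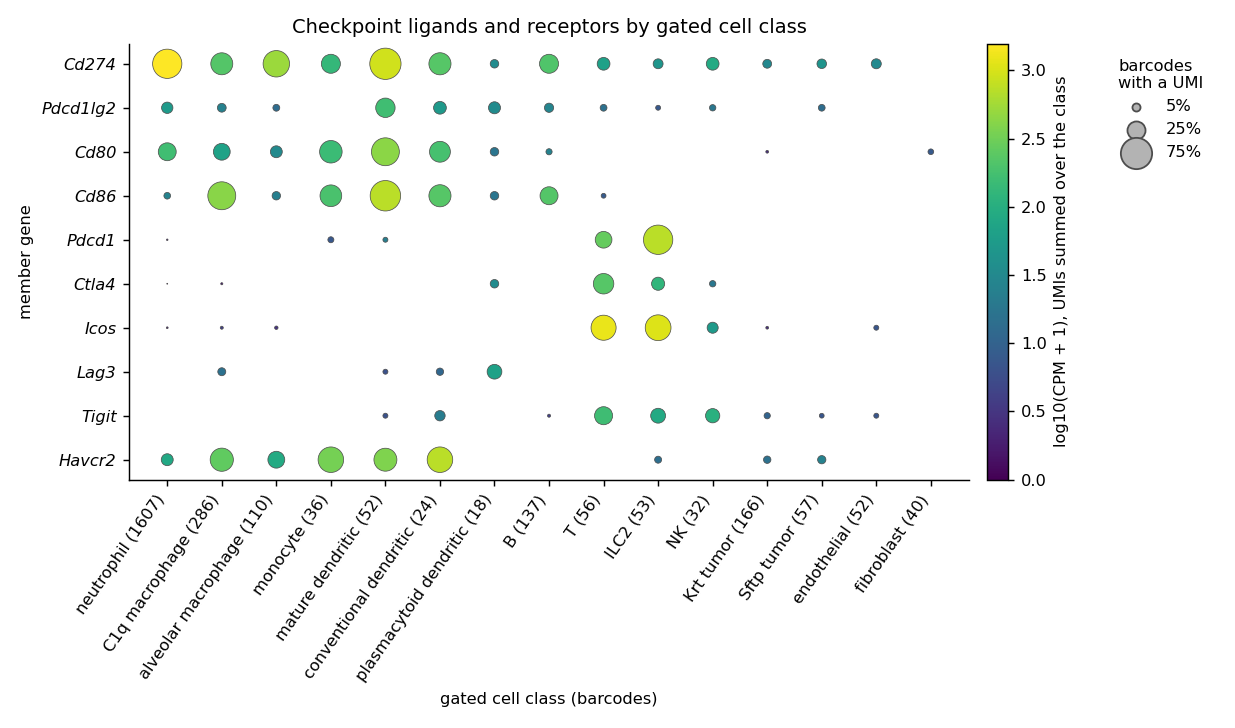
The 10 members (rows) in 15 of the 16 marker-gated classes (columns, with their numbers of barcodes), summed over the 8 libraries, with point area for the share of barcodes with a UMI and colour for log10(CPM + 1). Cd274 is highest in neutrophil-like barcodes (1558 CPM), the other ligands in mature dendritic-like barcodes, Pdcd1 in ILC2-like and Ctla4, Icos and Tigit in T-like barcodes.

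Pdcd1lg2 was highest in mature dendritic-like barcodes, at 164 CPM with 28.8% positive, against 52.3 CPM and 9.89% in neutrophil-like and 23.6 CPM in C1q macrophage-like barcodes. Because neutrophil-like barcodes were so frequent, they still held 57.7% of its 343 UMIs. Among the 52 mature dendritic-like barcodes, Pdcd1lg2 was found in 15 of the 39 that also held Cd274 and in 0 of the 13 that did not, and the median depths were 3436 and 1768 UMIs, so depth moved with this split and its part was not tested. Reads of Pdcd1lg2 and of its antisense neighbour were counted by a protocol whose use of strand is not given in the sources used here.

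Cd80 and Cd86, which share the receptors Cd28 and CTLA-4, were divided between the myeloid classes. Cd80 stood at 437 CPM in mature dendritic-like (59.6% positive), 175 CPM in conventional dendritic-like, 164 CPM in neutrophil-like (24.6%), 150 CPM in monocyte-like and 67.8 CPM in C1q macrophage-like barcodes. It was at 0 UMIs in T-like, NK-like and ILC2-like barcodes and at 1 UMI in keratin tumor-like barcodes. The C1q macrophage-like level of Cd80 differed between libraries and was 31.8 CPM in the Tumor 2 Border. In the Whole Tumor arrays it ran from 110 to 144 CPM in Tumor 2 and from 0 to 99.3 CPM in Tumor 1. The arrays of Tumor 2 thus overlapped their neutrophil-like range of 104 to 166 CPM. Cd86 stood at 737 CPM in mature dendritic-like (71.2%), 422 CPM in C1q macrophage-like (59.8%), 227 CPM in conventional dendritic-like, 216 CPM in B-like and 188 CPM in monocyte-like barcodes. In neutrophil-like barcodes Cd86 was at 25.9 CPM with 3.42% positive, in alveolar macrophage-like barcodes at 22.1 CPM, and in keratin tumor-like barcodes at 0 of 166.

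The share of Cd80 in the sum of Cd80 and Cd86 UMIs put this contrast in a single number per class. It was 86.4% in neutrophil-like barcodes (exact 95% interval 83.6% to 88.8%), 37.2% in mature dendritic-like and 13.8% in C1q macrophage-like barcodes, while alveolar macrophage-like barcodes, with 27 UMIs of both genes, had 59.3%. Over the 8 libraries the neutrophil-like share was lowest at 70.0% in the Tumor 2 Border and 72.8% in Whole Tumor array 1 of Tumor 1, and lay between 87.7% and 94.1% in the other 6. Capture can differ between transcripts, so the share is read across classes and not as a ratio of the proteins. Over all libraries 62.0% of 1002 Cd80 UMIs were in neutrophil-like barcodes, with 94.8% in the Tumor 1 Border but 36.5%, 38.1% and 44.7% in the Whole Tumor arrays of Tumor 2. Of 1283 Cd86 UMIs 60.6% were in macrophage-like barcodes, which held 51.9% to 72.2% in 7 libraries and 0 of 20 in the Tumor 1 Border.

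These levels were compared between classes with edgeR's quasi-likelihood test on UMIs summed per library and class, with library as a term and Benjamini-Hochberg adjustment over the 4793 genes tested. Neutrophil-like sums (8 libraries) against macrophage-like sums (7 libraries with at least 10 barcodes) gave higher Cd274 (1558 against 276 CPM, log2 difference 2.09 ± 0.33 SE, adjusted p 1.75e-06) and higher Cd80 (164 against 64.3 CPM, 1.39 ± 0.31, adjusted p 0.000319). Cd86 was lower (25.9 against 309 CPM, -3.27 ± 0.39, adjusted p 1.49e-08), and so was Icos (4 against 19 UMIs, -2.52 ± 0.81, adjusted p 0.0112), though the Icos call was lost without Whole Tumor array 1 of Tumor 1 (adjusted p 0.24) and with DESeq2 (adjusted p 0.20). Thus 2 of 8 tested members were higher and 2 lower. Tigit, at 0 UMIs in both classes, passed the filter on low counts through other sums. Pdcd1 (3 against 1 UMI) and Ctla4 (1 against 1) also had almost no counts here. The members' number is therefore not read against the 21.1% higher and 23.2% lower of all tested genes. Havcr2 did not pass (-0.57 ± 0.47, adjusted p 0.35).

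Against macrophage-like sums, tumor epithelial-like sums (5 libraries) were lower in Cd274 (34.9 against 276 CPM, -2.87 ± 0.49, adjusted p 8.6e-06), in Cd80 (1 against 162 UMIs, a ratio of levels of 47.9 with an exact 95% counting interval of 8.47 to 1903, adjusted p 5.26e-06) and in Havcr2 (-2.23 ± 0.74, adjusted p 0.0172 with edgeR, 0.055 with DESeq2, 0.056 with stricter gates and 0.072 without Whole Tumor array 2 of Tumor 1). Cd86 was at 0 UMIs there against 778 and so at least 76.7-fold lower, taking 3 UMIs over the group as the floor. Tigit, at 7 UMIs against 0, passed as higher, at least 7.89-fold, but not without Whole Tumor array 2 of Tumor 1 (adjusted p 0.081) nor with DESeq2 (0.40). With Cd86 and Tigit at 0 UMIs in a group, the members' number is not read against the 19.3% lower and 15.3% higher of all tested genes (926 lower and 734 higher, or 1123 and 561 with library totals). The 5 tumor epithelial-like sums came from the Border and 3 Whole Tumor arrays of Tumor 1 and from array 1 of Tumor 2. The macrophage-like sums came from the Whole Tumor arrays of both tumors and the Tumor 2 Border. The part of this imbalance was not tested. Dendritic-like sums (4 libraries, all of Tumor 2) exceeded macrophage-like sums in Cd80 (247 against 64.3 CPM, 1.39 ± 0.42, adjusted p 0.0191), in Havcr2 (534 against 157 CPM, 1.70 ± 0.54, adjusted p 0.0267) and in Tigit (3 against 0 UMIs, adjusted p 0.0262, a count at the floor). Tigit passed the filter on low counts through other sums, so the members' number is not read against all tested genes. Of those genes 5.99% were higher and 9.14% lower (287 higher and 438 lower, or 367 and 341 with library totals). The Cd80 call was lost without the Tumor 2 Border (0.064), without Whole Tumor array 2 (0.13) or 3 (0.32) of Tumor 2, with no filter (0.21), with at least 500 genes (0.12) and with stricter gates (0.088). The Havcr2 call was lost without array 2 (0.14) or 3 (0.24) of Tumor 2, with DESeq2 (0.12), with at least 500 genes (0.18) and with stricter gates (0.38). The macrophage-like levels pool 7 libraries of both tumors, and in the 4 libraries that hold both classes they were 56.7 CPM for Cd80 and 208 CPM for Havcr2. Cd274 and Cd86 did not pass in that comparison (0.33 ± 0.42 and 0.03 ± 0.47).

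The second question was which lymphocytes hold the receptors. The T-like gate was small, and its label was checked first: Cd3d was found in 35 and Cd3e in 26 of 56 barcodes, and Foxp3, the regulatory T cell factor, in 2 of 56. In the ILC2-like gate, defined by markers of type 2 innate lymphoid cells, Il1rl1 was found in 44, Gata3 in 38 and the cytokine gene Il5 in 27 of 53 barcodes, with Cd3d in 0, Cd3e in 1, Cd3g in 4 and Foxp3 in 3. T-like barcodes held Rora in 28, Gata3 in 11 and Il1rl1 in 6 of 56. T and ILC2 markers compete in the gate, which by itself keeps most T cell receptor genes out of the ILC2-like class.

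Pdcd1 was highest in ILC2-like barcodes, with 113 UMIs, 731 CPM and 35 of 53 barcodes positive (66.0%, exact 95% interval 51.7% to 78.5%). T-like barcodes held 39 UMIs, 276 CPM and 12 of 56 positive (21.4%, 11.6% to 34.4%). Median depths were 2604 and 2328.5 UMIs per barcode. Among barcodes with at least 1000 UMIs, thinned to that depth, the shares were 44.9% and 16.1%. The background is low: 3 of 1607 neutrophil-like barcodes held a Pdcd1 UMI (0.187%, median depth 2088). ILC2-like barcodes thus held 56.8% and T-like barcodes 19.6% of the 199 Pdcd1 UMIs. By library, Pdcd1 was found in 6 of 7, 15 of 18 and 4 of 7 ILC2-like barcodes of the 3 Whole Tumor arrays of Tumor 1, and in 1 of 3, 0 of 2 and 6 of 9 in those of Tumor 2, with 3 of 6 in the Tumor 2 Border and 0 of 1 in the Tumor 1 Border. T-like barcodes were positive in 3 of 20 at the Tumor 2 Border and in 1 of 10, 0 of 3 and 4 of 15 in the Whole Tumor arrays of Tumor 2. In Tumor 1, where T-like barcodes were few, 1 of 2 was positive at the Border, 0 of 2 in array 1 and 3 of 4 in array 2. In array 3 of Tumor 2 the level of T-like barcodes (538 CPM) was above that of ILC2-like barcodes (293 CPM), so the order of both classes was not the same in every library.

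Icos was close to even between both classes. It had 172 UMIs and 1218 CPM in T-like barcodes (48.2% positive) and 163 UMIs and 1055 CPM in ILC2-like barcodes (50.9%), with overlapping exact 95% intervals of the level (1043 to 1414 CPM and 899 to 1230.1 CPM). NK-like barcodes were at 52.0 CPM with 9.38% positive, and 0.249% of neutrophil-like barcodes held an Icos UMI. Ctla4, summed over libraries, was highest in T-like barcodes, with 32 UMIs, 227 CPM and 32.1% positive, against 19 UMIs, 123 CPM and 13.2% in ILC2-like barcodes, and 8 of those 19 UMIs came from a single barcode in Whole Tumor array 1 of Tumor 2. By library the ILC2-like level was higher in arrays 1 and 2 of Tumor 1 (57.7 against 0 and 124 against 80.1 CPM). It was also higher in array 1 of Tumor 2 (809 against 201 CPM). It was lower in array 3 of Tumor 2 (73.2 against 351 CPM) and at the Tumor 1 and Tumor 2 Borders (0 against 270 and 198 CPM). Tigit had 22 UMIs and 156 CPM in T-like (25% positive), 6 UMIs and 104 CPM in NK-like (15.6%) and 13 UMIs and 84.1 CPM in ILC2-like barcodes (17.0%). Of the 22 T-like Tigit UMIs, 15 were in 7 of the 20 barcodes of the Tumor 2 Border. The plot of receptor shares sets the positive barcodes of the lymphoid classes beside each other.

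**Figure D2:**
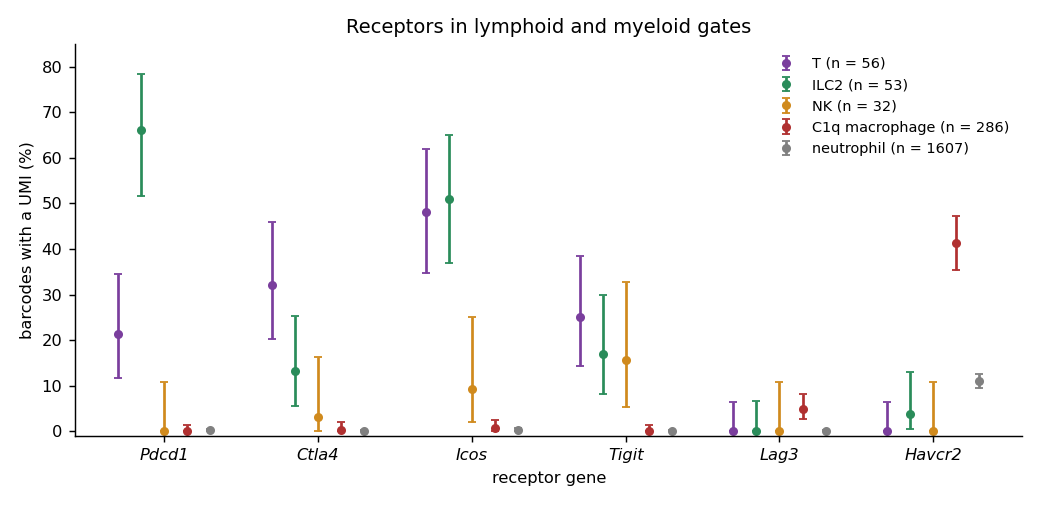
Share of barcodes with a UMI (%) of each receptor in T-like, ILC2-like, NK-like, C1q macrophage-like and neutrophil-like barcodes, with exact 95% binomial intervals that cover counting error only. Pdcd1 is highest in ILC2-like barcodes (66.0%), Ctla4 in T-like barcodes (32.1%) and Havcr2 in C1q macrophage-like barcodes (41.3%).

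Receptors were often found in the same barcode. At least 1 of Pdcd1, Ctla4, Icos and Tigit was detected in 35 of 56 T-like and 45 of 53 ILC2-like barcodes, and at least 2 of them in 23 and 24. In T-like barcodes Ctla4 (18 positive) and Tigit (14 positive) shared 10 barcodes, and Ctla4 and Icos shared 14. In ILC2-like barcodes the most frequent pair was Pdcd1 with Icos, in 17 of 53. Joint detection rises with depth, whose part here was not tested.

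Havcr2, by contrast, was found mainly in myeloid classes and was at 0 of 56 T-like, 0 of 32 NK-like and 2 of 53 ILC2-like barcodes. By the floor of 3 counts, 0 of 56 allows a share of barcodes with a UMI of up to 5.36%. It stood at 721 CPM in conventional dendritic-like (50% positive), 377 CPM in mature dendritic-like (40.4%), 338 CPM in monocyte-like (50%) and 260 CPM in C1q macrophage-like barcodes (41.3%), then at 86.4 CPM in alveolar macrophage-like and 81.6 CPM in neutrophil-like barcodes (11.0%). The share in keratin tumor-like barcodes was 4.22%. Of the 1029 Havcr2 UMIs, 38.4% were in macrophage-like, 30.0% in neutrophil-like and 13.5% in dendritic-like barcodes. The tumors differed here: neutrophil-like barcodes held 60.9% to 85.7% of Havcr2 UMIs in the 4 libraries of Tumor 1 and 2.13% to 14.8% in those of Tumor 2. Mature dendritic-like barcodes differed between the tumors: in the 3 Whole Tumor arrays of Tumor 1 they held Havcr2 in 0 of 5, 0 of 5 and 1 of 7 barcodes, and in those of Tumor 2 in 4 of 6, 6 of 10 and 5 of 8, with 5 of 11 at the Tumor 2 Border. These few barcodes were not tested apart from the sums.

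Lag3 gave 42 UMIs in all, of which 19 were in C1q macrophage-like barcodes (14 of 286 positive, 4.90%) and 4 in plasmacytoid dendritic-like barcodes (3 of 18). It was at 0 in T-like, NK-like and ILC2-like barcodes, which for the T-like class again allows a share of barcodes with a UMI of up to 5.36%, and at 0 of 1607 neutrophil-like barcodes. A Lag3 level in T-like barcodes was therefore not detectable at this depth.

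In the class test, T-like sums came from 3 libraries, all of Tumor 2. Against B-like sums (5 libraries) they were higher in Pdcd1 (28 against 0 UMIs, at least 22.7-fold), Ctla4 (30 against 0, at least 24.3-fold), Icos (125 against 0, at least 101-fold) and Tigit (20 against 0, at least 16.2-fold), with edgeR adjusted p of 0.00204, 0.000162, 2.34e-07 and 0.00473. Cd86 was lower (1 against 62 UMIs, 25.5-fold with an exact 95% counting interval of 4.41 to 1023, adjusted p 0.00481). Of all genes tested 3.84% were higher and 2.80% lower. The 4 receptors, at 0 UMIs in B-like sums, passed the filter on low counts through other sums, so their number is not read against these shares. Under DESeq2 Icos kept its call and Pdcd1, Ctla4 and Tigit did not (adjusted p 0.71, 0.71 and 0.65). Tigit and Cd86 also lost theirs without the Tumor 2 Border (0.13 and 0.086), and Tigit without Whole Tumor array 3 of Tumor 2 (0.061). Stricter gates ended the calls of Ctla4 (0.099), Tigit (0.12) and Cd86 (0.15).

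Against macrophage-like sums, T-like sums were higher in Icos (7.20 ± 0.68 on the log2 scale) and Tigit (20 against 0 UMIs, at least 142-fold), and in Pdcd1 (28 against 1 UMI, a ratio of levels of 596 with an exact 95% counting interval of 98.6 to 24382) and Ctla4 (30 against 1 UMI, 639, 106 to 26065). They were lower in Cd274 (-2.77 ± 0.66), Cd86 (1 against 778 UMIs, 36.5-fold, 6.54 to 1445), Cd80 (0 against 162 UMIs, at least 2.54-fold) and Havcr2 (0 against 395 UMIs, at least 6.18-fold). The adjusted p values of edgeR ran from 2.63e-09 for Icos to 0.00244 for Havcr2. Members at 0 or 1 UMI in a group passed the filter through other sums, and their number is not read against the 7.26% higher and 18.9% lower of all tested genes (348 higher and 905 lower, or 679 and 577 with library totals). DESeq2 did not call Pdcd1, Ctla4 and Tigit here (adjusted p 0.36, 0.35 and 0.22).

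Between T-like sums and the joined NK-like and ILC2-like sums (3 libraries each) 0 of 8 tested members passed in edgeR, nor did nearly any gene, with 0.00% of genes higher and 0.125% lower. Over all libraries Cd80 was at 0 UMIs in these classes, Cd86 at 1 against 0 and Havcr2 at 0 against 2. These members could therefore hardly pass. At an unadjusted p under 0.05 there were 436 genes of any kind, and DESeq2 called 3 higher and 5 lower. The differences were 0.13 ± 0.36 for Pdcd1, 2.0 ± 1.1 for Ctla4, 0.50 ± 0.87 for Icos and 0.40 ± 1.33 for Tigit. Over the alternatives that of Pdcd1 ran from -0.95 to 1.41, a wider span than its error, so its direction is not resolved. The compared sums shared 1 library only, and NK-like barcodes, which held 0 Pdcd1 UMIs, were 10 of 12 and 13 of 22 barcodes in the sums of arrays 2 and 3 of Tumor 2. T-like and ILC2-like sums were not tested against each other, and the higher share of Pdcd1 in ILC2-like barcodes is a description of barcodes.

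The third comparison was between the Healthy/Tumor Border and the Whole Tumor within the same class, first in neutrophil-like barcodes, which held 77.9% of Cd274 but only 7.64% of Cd86 UMIs. Cd274 stood at 2723 CPM in the Tumor 1 Border, with 355 of 412 barcodes positive (86.2%), against 1197, 1267 and 966 CPM in the 3 Whole Tumor arrays of Tumor 1 (1144 ± 157, SD, n = 3 arrays). In Tumor 2 the Border was at 1020.1 CPM (63.1% positive) and the arrays at 968, 933 and 1089.8 CPM (997 ± 82.2, n = 3 arrays). The Tumor 1 Border lay above all other libraries, and the Tumor 2 Border lay within the range of its arrays. Macrophage-like barcodes of the Tumor 1 Border, below the limit of 10 barcodes, were also higher in Cd274. These 5 barcodes, all positive, held 27 UMIs at 3103 CPM (exact Poisson interval 2045 to 4514 CPM). In its Whole Tumor arrays that class ran from 221 to 300 CPM. The 1 dendritic-like barcode of that Border held 0 Cd274 UMIs. Whether the higher level there is particular to neutrophil-like barcodes was not tested.

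**Figure D3:**
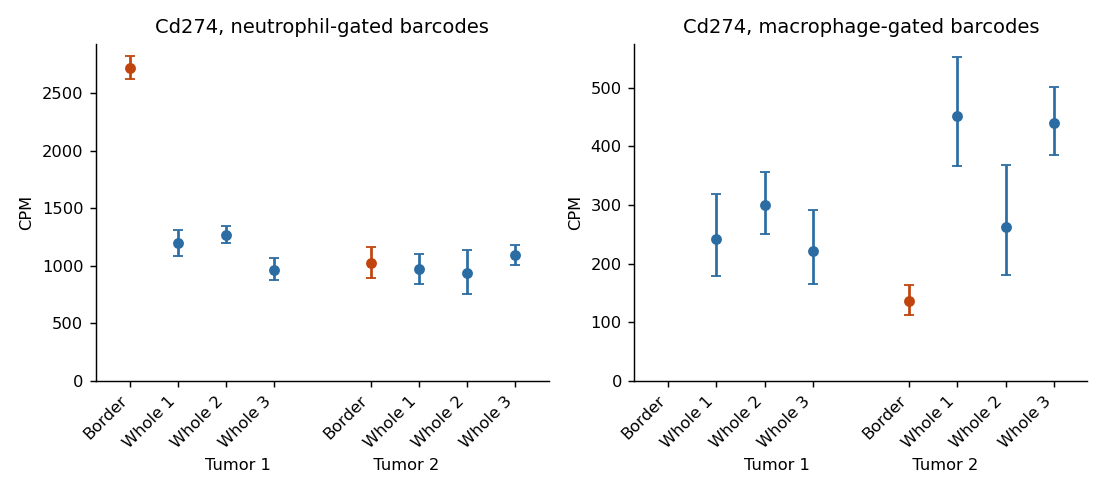
Cd274 level (CPM) per library in neutrophil-like (left) and macrophage-like barcodes (right), with exact 95% Poisson intervals, Border in orange and Whole Tumor arrays in blue, and libraries with under 10 barcodes left out. The Tumor 1 Border stands at 2723 CPM above all other neutrophil-like sums, and the Tumor 2 Border at 136 CPM below all other macrophage-like sums.

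In edgeR's test across 6366 genes the Tumor 1 Border exceeded its Whole Tumor in Cd274 by a log2 difference of 1.79 ± 0.25 (SE), 3.45-fold, with an adjusted p of 1.13e-06. Scaling by library totals in place of TMM gave 1.23 with an adjusted p of 0.00016. In Tumor 2 the difference was -0.40 ± 0.29 (adjusted p 0.46), or 0.03 with library totals. The difference between the tumors was itself called, at 2.19 ± 0.40 (adjusted p 0.000135, and 1.20, 0.0099 with library totals), but not when barcodes needed at least 500 genes (1.98, adjusted p 0.17). A Border is 1 library per tumor, so the spread in these tests is that between the technical arrays of a Whole Tumor (4 residual degrees of freedom), and an adjusted p describes these libraries, not further animals.

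Neutrophil-like barcodes were divided by 2 sets of genes that mark different neutrophil states, Ffar2, Rab15 or Entpd3 on one side and Retnlg, Hdc or Asprv1 on the other. Ffar2 and Hdc are also markers of the neutrophil gate, so the split is not independent of the gate. Over all libraries the median depth was 2455 UMIs with the first set alone, 1797 with the second alone and 2722 with both. The Tumor 1 Border was at 2290 CPM of Cd274 in barcodes with the first set alone (134 barcodes), 3705 CPM with the second alone (101), 2446 CPM with both (81) and 2637 CPM with neither (96). In those 4 subsets the Whole Tumor arrays of Tumor 1 ran from 477 to 1605 CPM. Each subset of the Tumor 1 Border was thus above every Whole Tumor array of that tumor.

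The other members were read in the same barcodes. Cd86 in neutrophil-like barcodes stood at 112 CPM in the Tumor 2 Border and at 9.0, 9.72 and 12.6 CPM in its arrays, against 17.5 CPM in the Tumor 1 Border and 59.7, 17.8 and 20.1 CPM in the arrays there. The Tumor 2 Border was above all other libraries, on 24 UMIs from 7 of 103 barcodes. Its log2 difference from the Whole Tumor was 2.83 ± 0.67 (adjusted p 0.00499, edgeR), and in Tumor 1 it was -0.23 ± 0.58 (adjusted p 0.87). The difference between the tumors, -3.07 ± 0.90 (adjusted p 0.0215), was no longer called without Whole Tumor array 1 of Tumor 1 (-2.38, adjusted p 0.090), without array 3 of Tumor 2 (-3.44, 0.0502) or without barcodes that held a C1q macrophage marker (-2.53, 0.20).

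Havcr2 was also highest in the Tumor 2 Border, with 164 CPM (35 UMIs in 16 of 103 barcodes) against 18.0, 9.72 and 25.3 CPM in the arrays, and 105 CPM in the Tumor 1 Border against 97.7, 86.9 and 82.8 CPM. In Tumor 2 the groups did not overlap and the log2 difference was 2.48 ± 0.48 (adjusted p 0.000607), while in Tumor 1 it was 0.77 ± 0.33 (adjusted p 0.16), and called with stricter gates (1.08, adjusted p 0.031). The difference between the tumors was -1.71 ± 0.59 (adjusted p 0.058 with edgeR). It was called with library totals (-2.73, adjusted p 0.0011), without the barcodes that libraries share (0.044) and without array 3 of Tumor 2 (0.043).

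Cd86 and Havcr2 are both high in C1q macrophage-like barcodes, so the 8 genes of that marker list were read in the neutrophil-like barcodes. They summed to 1.54 per 10000 UMIs in the Tumor 2 Border, where 3 of the 8 were at 0, and to 2.84, 1.36 and 1.88 in its arrays, and single genes went both ways. C1qa stood at 4.68 CPM in that Border against 0 to 4.50 CPM in those arrays and C1qb at 14.0 against 9.0, 0 and 3.61 CPM, while Csf1r was at 103 against 248, 136 and 170 CPM. Outside the list, the myeloid genes Ctss and Lyz2 were at 206 against 135, 38.9 and 59.5 CPM and at 168 against 783, 263 and 319 CPM. Their part in the Cd86 and Havcr2 values was not tested. In Tumor 1 the sums were 0.688 at the Border and 3.99, 2.44 and 2.41 in the arrays. In barcodes with no marker of that list, Cd86 in the Tumor 2 Border was at 100.2 CPM against 13.3, 10.6 and 7.38 CPM, and Havcr2 at 142 CPM against 19.9, 10.6 and 29.5 CPM. Of the 7 Cd86-positive barcodes of that Border 4 also held a marker of the list, so its value without them rests on 17 UMIs in 3 of 85 barcodes.

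Cd80 stood at 262 CPM in the Tumor 2 Border against 104, 156 and 166 CPM, and at 176 CPM in the Tumor 1 Border against 160, 153 and 143 CPM, so each Border was above its own arrays. Neither difference passed (0.42 ± 0.36, adjusted p 0.53, and 0.75 ± 0.31, adjusted p 0.14). Pdcd1lg2 was at 74.7 CPM in the Tumor 1 Border against 50.2 to 57.9 CPM (1.01 ± 0.37, adjusted p 0.088, and 0.039 with stricter gates), and at 46.8 CPM in the Tumor 2 Border against 14.4 to 45 CPM (0.52 ± 0.64, adjusted p 0.69). In all, 5 members passed the filter on low counts, of which 1 was called higher and 0 lower in Tumor 1, beside 6.35% and 1.29% of all tested genes (3 and 0 with stricter gates), and 2 higher and 0 lower in Tumor 2, beside 2.72% and 4.54%. For the difference between the tumors it was 1 higher in Tumor 1 and 1 lower, beside 6.66% and 2.73% (1 and 2 with library totals). With library totals, which put the median of all tested genes at -0.61, 0.48 and -1.09 in these 3 comparisons, the calls over all genes turned from 404 higher and 82 lower to 152 and 801 in Tumor 1, from 173 and 289 to 556 and 153 in Tumor 2, and from 424 and 174 to 161 and 1118 for the difference.

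**Figure D4:**
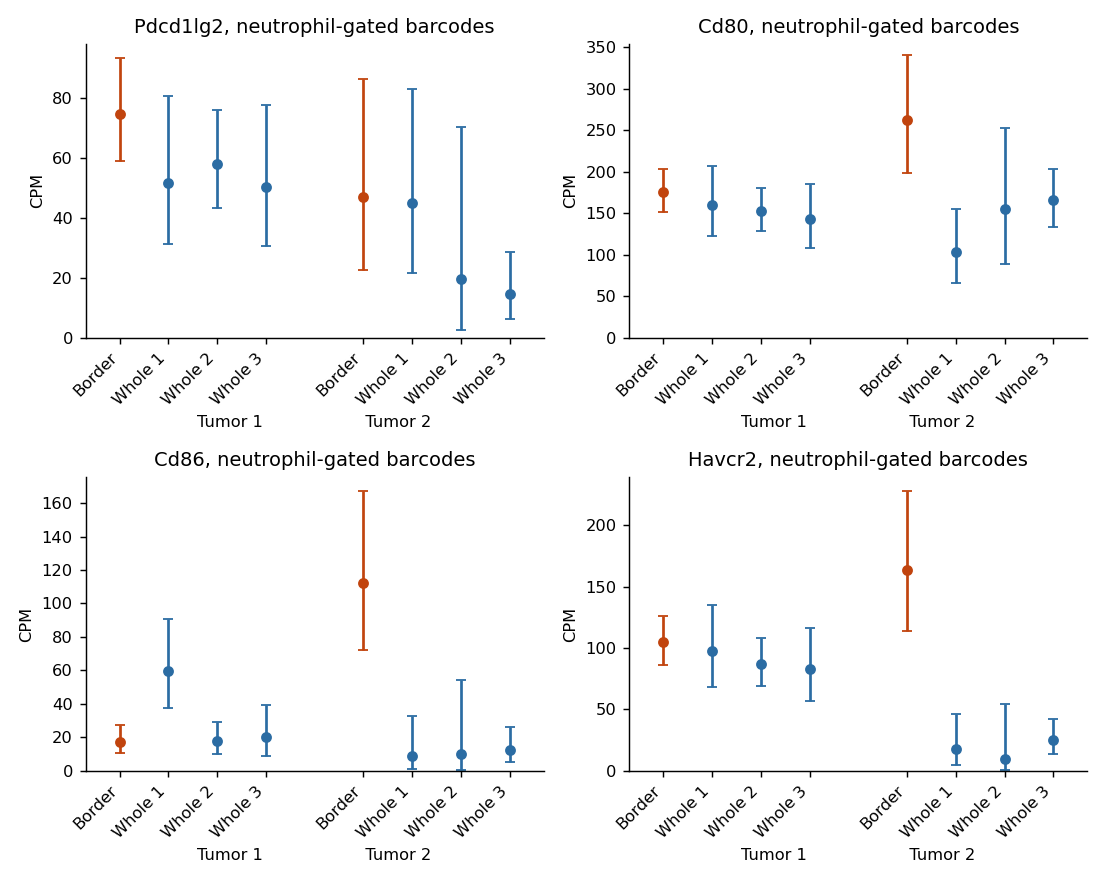
Levels (CPM) of Pdcd1lg2, Cd80, Cd86 and Havcr2 in neutrophil-like barcodes per library, with exact 95% Poisson intervals, Border in orange and Whole Tumor arrays in blue. Cd86 (112 CPM) and Havcr2 (164 CPM) of the Tumor 2 Border stand above every other library.

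Neutrophil-like barcodes of both Whole Tumors were compared next. They held different neutrophil states: barcodes with Ffar2, Rab15 or Entpd3 alone were 248 in Whole Tumor 1 and 8 in Whole Tumor 2, and those with Retnlg, Hdc or Asprv1 alone were 83 and 404. Havcr2 was lower in Tumor 2 (21.6 against 88.3 CPM, log2 difference -1.21 ± 0.38, adjusted p 0.00921, and -2.08 with library totals). In barcodes with Retnlg, Hdc or Asprv1 alone it was also lower in every array of Tumor 2 (11.1, 11.7 and 21.8 CPM) than in those of Tumor 1 (128, 103 and 90.9 CPM). The part of the states in the other differences between the Whole Tumors, the gene lists included, was not tested. Cd274 (0.62 ± 0.20, adjusted p 0.0113) and Cd80 (0.75 ± 0.26, adjusted p 0.017) were called higher in Tumor 2 with TMM, but their direction turned with library totals, to -0.21 (adjusted p 0.26) and -0.10 (0.71), and neither level in CPM was higher in Tumor 2 (1041 against 1179.8 CPM and 149 against 152 CPM). Library totals put the median log2 difference of all tested genes at -1.10, against -0.24 with TMM, and changed the calls from 1389 higher and 1288 lower to 696 and 3442. Both calls were also lost without array 3 of Tumor 1 (0.093 and 0.057) or array 3 of Tumor 2 (0.096 and 0.30), with no filter (0.19 and 0.15), with at least 500 genes (0.42 and 0.072) and without C1q-marked barcodes (0.29 and 0.18). With TMM, 2 of 5 tested members were higher and 1 lower, beside 21.8% and 20.2%. With library totals 0 were higher and 3 lower, since Pdcd1lg2 (-1.19, adjusted p 0.011) and Cd86 (-1.41, adjusted p 0.037) were then called beside Havcr2.

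In macrophage-like barcodes the Border could be tested in Tumor 2 only. Cd274 stood at 136 CPM in the Border (50 of 164 barcodes positive) against 453, 263 and 440 CPM in the arrays, below all of them. The log2 difference was -1.59 ± 0.34 (adjusted p 0.00623, edgeR over 5288 genes). With C1q macrophage-like barcodes alone the levels were 122 CPM against 204, 226 and 381 CPM, and the difference, -1.32, did not pass (adjusted p 0.57), nor did it with stricter gates (-1.38, adjusted p 0.071). The Border held 143 C1q and 12 alveolar macrophage-like barcodes, and the arrays together 106 and 92. Alveolar macrophage-like barcodes had the higher Cd274 level, and the part of this mixture was not tested.

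Cd80 was at 32.5 CPM in that Border against 84.9, 63.7 and 80.7 CPM, below all arrays, without passing (-1.32 ± 0.42, adjusted p 0.10). With C1q macrophage-like barcodes alone the gap in Cd80 was wider, at 31.8 CPM against 110 to 144 CPM. Cd86, at 288 CPM, lay within its arrays' 231 to 311 CPM (-0.06 ± 0.30), and Havcr2, at 218 CPM, within 104 to 335 CPM (0.05 ± 0.44). With C1q macrophage-like barcodes alone, however, Cd86 was at 317 CPM in the Border against 526 to 631 CPM, below all arrays. Its log2 difference reached -0.95 among 14 alternatives and was called in none of them. Thus 0 of 5 tested members were higher and 1 lower, beside 1.66% and 1.27% of all tested genes.

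Summed over all barcodes of a library, the members reflect both the cells present and the transcripts in each, and fewer cells of a type cannot be told apart from less RNA per cell. Cd274 was at 2496 CPM in the Tumor 1 Border against 579, 715 and 524 CPM in its arrays, and at 294 CPM in the Tumor 2 Border against 480, 454 and 547 CPM. Neutrophil-like barcodes were 412 of 620 kept in the first Border and 103 of 506 in the second. Cd86 went the other way, at 16.3 CPM in the Tumor 1 Border against 112, 112 and 123 CPM, and at 225 CPM in the Tumor 2 Border against 151, 144 and 167 CPM. Icos was at 4.06 CPM in the Tumor 1 Border against 41.7, 36.2 and 21.0 CPM, and at 67.7 CPM in the Tumor 2 Border against 60.0, 48.1 and 83.6 CPM.

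**Figure D5:**
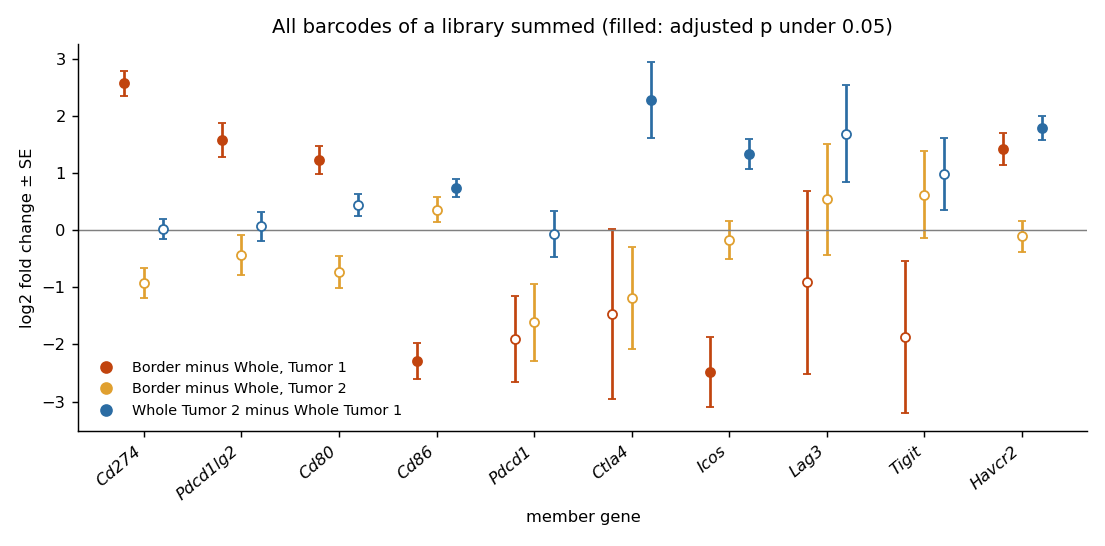
Log2 differences (± SE, edgeR) of the 10 members with all barcodes of a library summed, for Border minus Whole Tumor in each tumor and for Whole Tumor 2 minus Whole Tumor 1, with filled points for an adjusted p under 0.05. Cd274 is at 2.57 in Tumor 1 and at -0.93 in Tumor 2.

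In edgeR's test over 11232 genes the Tumor 1 Border was higher than its Whole Tumor in Cd274 (2.57 ± 0.22, adjusted p 3.76e-07), Pdcd1lg2 (1.58 ± 0.29, 0.000888), Cd80 (1.23 ± 0.24, 0.00142) and Havcr2 (1.42 ± 0.28, 0.00124), and lower in Cd86 (-2.29 ± 0.31, 5.61e-05) and Icos (-2.48 ± 0.62, 0.0084). That is 4 higher and 2 lower of 10 members, beside 9.96% and 8.37% of all tested genes. With library totals these 6 members kept their direction and call, and Pdcd1 was called lower as well (-2.41, adjusted p 0.025, against -1.90 and 0.091 with TMM), while all calls went from 1119 higher and 940 lower to 544 and 2517. In Tumor 2, 0 of 10 members passed in either direction, beside 1.02% and 2.16% (115 higher and 243 lower genes, or 240 and 189 with library totals), and the smallest adjusted p was that of Cd274 (-0.93 ± 0.26, 0.061). DESeq2 called Cd274 lower there (adjusted p 0.0038), and so did edgeR without Whole Tumor array 2 of Tumor 1 (0.017).

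Between the Whole Tumors, Tumor 2 was higher in Havcr2 (151 against 56.5 CPM, 1.79 ± 0.21, adjusted p 4.43e-06), Icos (73.0 against 33.6 CPM, 1.33 ± 0.26, 0.00107), Cd86 (160 against 115 CPM, 0.74 ± 0.16, 0.00258) and Ctla4 (39 against 15 UMIs, 2.28 ± 0.67, 0.0178). The Ctla4 call was lost without array 1 of Tumor 2 (1.67, adjusted p 0.18) or array 3 of Tumor 1 (2.02, 0.054). Thus 4 of 10 members were higher and 0 lower, beside 14.3% of tested genes higher and 11.0% lower. All 4 kept their direction and call with library totals, which changed the calls over all genes from 1606 higher and 1230 lower to 1083 and 2703. The Whole Tumor arrays of Tumor 2 held 28 T-like, 29 NK-like and 106 C1q macrophage-like barcodes, and those of Tumor 1 held 6, 2 and 36. ILC2-like barcodes, which held 36.0% of all Icos and 29.2% of all Ctla4 UMIs, were 14 in Tumor 2 and 32 in Tumor 1, and the part of these counts was not tested.

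The partners of the members were read from a list of 33 further checkpoint and costimulatory genes. Cd28, the activating receptor for Cd80 and Cd86, was at 368 CPM in T-like, 139 CPM in NK-like and 90.6 CPM in ILC2-like barcodes. Icosl, the ligand of ICOS, was low and spread over antigen-presenting classes, at 60.1 CPM in mature dendritic-like, 57.8 CPM in B-like and 52.6 CPM in C1q macrophage-like barcodes. Of the TIGIT ligands, Pvr was highest in endothelial-like (463 CPM) and fibroblast-like barcodes (389 CPM), and Pvrl2 in keratin (111 CPM) and surfactant-expressing tumor-like barcodes (106 CPM). Lgals9 stood at 87.6 CPM in C1q macrophage-like and 83.9 CPM in neutrophil-like barcodes. Tnfrsf9 (4-1BB), a costimulatory receptor, reached 2783 CPM in ILC2-like and 835 CPM in mature dendritic-like barcodes, and Entpd1 (CD39), which degrades extracellular ATP, was highest in neutrophil-like barcodes at 465 CPM. Ifng UMIs were mostly in NK-like barcodes (47 UMIs, 814 CPM), with 9 in T-like barcodes.

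In neutrophil-like barcodes 12 of the 33 checkpoint genes were tested: 0 passed between Border and Whole Tumor in Tumor 1 (median log2 difference 0.03, against -0.06 over all tested genes, of which 6.35% were higher and 1.29% lower), and 1 was lower and 0 higher in Tumor 2 (median 0.02 against 0.03), namely Entpd1 (-1.33, adjusted p 0.0056). With library totals 0 were higher and 2 lower in Tumor 1, Tnfrsf9 (-2.23, 0.034) and Cd47 (-0.89, 0.037). In Tumor 2, 2 were then higher, Lgals3 (1.12, 0.011) and Nt5e (2.24, 0.017), and Entpd1 lower (-0.90, 0.026). Of 12 interferon gamma genes 8 were tested there, and 2 were higher in the Tumor 1 Border, Cxcl10, an interferon-induced chemokine (2.14, adjusted p 0.0087), and Irf1 (0.98, 0.037), with a list median of 0.08. With library totals neither passed (1.59, adjusted p 0.055, and 0.43, 0.28), and 0 of the 8 were higher and 3 lower. In the Tumor 2 Border Cxcl10 was higher (2.58, 0.043), and Irf1 (-1.49, 0.023) and the receptor chain Ifngr2 (-1.54, 0.043) were lower, with a list median of -0.72, beside 2.72% of all tested genes higher and 4.54% lower. With library totals Cxcl10 alone of these passed (3.04, 0.016), Irf1 being at -1.04 (0.084) and Ifngr2 at -1.10 (0.13). In the difference between the tumors, beside 6.66% of all tested genes higher in Tumor 1 and 2.73% lower, 1 interferon gamma gene was higher and 0 lower, namely Irf1 (2.47, adjusted p 0.0011, and 1.47, 0.031 with library totals). Of the checkpoint genes 2 were higher, Entpd1 (1.84, 0.0022, but 0.86, 0.082 with library totals) and Tnfsf9 (adjusted p 0.030, but 0.062 with library totals), and Nt5e was lower (-2.35, 0.035). With library totals 0 were higher and 3 lower, among them Nt5e (-3.34, 0.0032). Between the Whole Tumors, neutrophil-like barcodes of Tumor 2 had 4 checkpoint genes higher and 1 lower of 12, led by Entpd1 (2.39, 4.9e-13) and Tnfrsf9 (-4.19, 0.00017), and 3 interferon gamma genes higher of 8, led by Ifngr1 (1.47, 3.0e-06) and Irf1 (1.24, 8.8e-05), beside 21.8% of all tested genes higher and 20.2% lower. With library totals these became 2 checkpoint genes higher and 5 lower and 1 interferon gamma gene higher and 2 lower. Entpd1 (1.56, 9.5e-09), Tnfrsf9 (-5.03, 2.3e-05) and Ifngr1 (0.62, 0.016) kept direction and call, and Irf1 did not pass (0.39, 0.14).

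In macrophage-like barcodes of Tumor 2, Cd47, the signal that restrains phagocytosis, was the 1 checkpoint gene of 12 lower in the Border (-1.19, adjusted p 0.032, and 0.051 with library totals), and Cxcl10 the 1 interferon gamma gene of 9 higher (1.35, 0.043), beside 1.27% of all tested genes lower and 1.66% higher. Over all barcodes, Whole Tumor 2 had 8 of 11 tested interferon gamma genes higher and 0 lower (list median 1.11, against -0.08 over all tested genes), among them Irf8 (2.22, 1.3e-07), Irf1 (1.80, 3.8e-07) and Cxcl10 (2.44, 1.7e-05), and 6 checkpoint genes higher and 3 lower of 26, beside 14.3% of all tested genes higher and 11.0% lower. With library totals these were 6 and 0, and 4 and 3, and Irf8, Irf1 and Cxcl10 kept their calls. The Tumor 1 Border had 3 checkpoint genes higher and 4 lower of 26 and 3 interferon gamma genes higher and 1 lower of 11, beside 9.96% and 8.37%, but 0 and 7, and 2 and 4, with library totals. The Tumor 2 Border had 0 and 1, and 1 and 1, beside 1.02% and 2.16%, and 1 and 1 for each list with library totals. Between classes, 14 checkpoint and 10 interferon gamma genes were tested. T-like against macrophage-like sums had 3 and 5 higher and 6 and 0 lower, beside 7.26% and 18.9% of all tested genes (3 and 7 higher and 3 and 0 lower with library totals). Neutrophil-like against macrophage-like sums had 2 and 2 higher and 4 and 3 lower, with either scaling, beside 21.1% and 23.2%. The medians of a list describe these libraries and were not tested.

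The genes whose levels most resembled those of a member over the 15 classes with at least 20 barcodes were found by Pearson's r of log2(CPM + 10) among 9480 genes, as a description. Cd274 was most like Ncf1, a subunit of the phagocyte NADPH oxidase (r = 0.90), Cd80 was most like Irf5 (0.93), Cd86 like Ly86 (0.88) and Havcr2 like Ist1 (0.90). The lymphoid receptors shared their neighbours: Cxcr6, a chemokine receptor, was the closest gene for Ctla4 (0.97) and Icos (0.99) and the next after Ret (0.92) for Pdcd1 (0.89), and Cd28 was the closest for Tigit (0.97). Pdcd1lg2 was most like Gm26667 (0.88). The 15 points share libraries and depth, and the lymphoid classes are the few high points behind the receptor values.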

How the data were processed

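Per the labels and the study's methods, the authors demultiplexed the reads with bcl2fastq 2.17.1.14, aligned them to mm10 with STAR 2.5.2b after the Drop-seq protocol and deposited 1 table of raw UMI counts per gene and barcode for each of the 8 libraries. Whether strand was used, and the annotation version, are not given in the sources used here. Barcodes with under 200 genes were left out (449), and Scrublet, run per library in scanpy 1.11.5, marked 57 of the rest (1.46%) as doublets, which were kept. Doublets were left out in an alternative, as were the barcodes that libraries share.

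UMI counts were summed per library and class and tested with edgeR 4.0.16 (R 4.3.3, glmQLFit and glmQLFTest, TMM, filterByExpr, two-sided, Benjamini-Hochberg over all genes tested, threshold 0.05). Class comparisons used sums of at least 10 barcodes with library as a term. The standard error is the absolute log2 difference divided by the square root of F, and the tests were tried on simulated data. DESeq2 1.42.0, no filter on low counts, library totals, at least 500 genes per barcode, stricter gates (at least 3 markers and a margin of 2), no library term and leaving out each library were the alternatives. Gates limited to C1q macrophage markers, neutrophil-like barcodes with no C1q macrophage marker, barcodes that libraries share and wider T and ILC2 marker lists were added after seeing the data. Positive shares carry exact (Clopper-Pearson) 95% intervals, levels exact Poisson ones, ratios with 1 to 3 UMIs in a group exact conditional binomial ones, and the floor is 3 UMIs. A UMI is 1 molecule, but intervals and floors cover counting error only.

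All 10 members are named. Of the 33 checkpoint and 12 interferon gamma genes up to 6 with the smallest adjusted p per comparison could be named, and their class levels were chosen for description as partners of the members. For likeness, the 3 genes with the highest Pearson's r over classes were listed and the first named. Members, lists, gates and held-out genes were chosen with earlier results of these data and the study's cluster genes known. Human organoids and image data are outside this comparison. An engineered allele of the model, 1 macrophage class on its own (its barcodes stay in the macrophage-like sums) and a gene of the interferon gamma list are not reported here.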

Additional observations from a re-analysis of the deposited data

Results flagged for a closer look

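Effects of the Healthy/Tumor Border in neutrophil-like barcodes differed between the 2 tumors for 2 members, by edgeR's test of the difference itself. The Border minus Whole Tumor difference of Cd274 was greater in Tumor 1 than in Tumor 2 by 2.19 ± 0.40 on the log2 scale (adjusted p 0.000135, 1.20 and 0.0099 with library totals, and 1.98 and 0.17 with at least 500 genes per barcode), and that of Cd86 was smaller in Tumor 1 by -3.07 ± 0.90 (adjusted p 0.0215). The Cd86 call was lost without C1q-marked barcodes (-2.53, adjusted p 0.20), without Whole Tumor array 1 of Tumor 1 (-2.38, 0.090) and without array 3 of Tumor 2 (-3.44, 0.0502). Each Border is 1 library, so animal, sex and library cannot be told apart in either value.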

How the results depend on the processing

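Of the members' log2 differences under the alternatives, 1311 stayed on the same side of the threshold, 49 lost their call, 16 gained a call and 2 that were called turned direction. Of the 1311, 52 changed sign with no call under either setting, among them Cd274 of neutrophil-like barcodes in the Tumor 2 Border (-0.40, and 0.03 with library totals), so the direction of uncalled members is not resolved there. Both turned calls came with library totals in neutrophil-like barcodes of Whole Tumor 2 against Whole Tumor 1, for Cd274 (0.62 to -0.21) and Cd80 (0.75 to -0.10). DESeq2 changed 12 calls and stricter gates 10, while leaving out the doublets changed none of 94.

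Counts of called genes moved more. With DESeq2 they went from 486 to 273 (neutrophil-like Border against Whole Tumor in Tumor 1), from 598 to 335 (difference between the tumors), from 155 to 52 (macrophage-like) and from 2836 to 1854 (all barcodes, Whole Tumors). With library totals the neutrophil-like counts were 953 in Tumor 1, 709 in Tumor 2 (462), 1279 for the difference and 4138 between the Whole Tumors (2677). With no filter they were 236 in Tumor 2 and 360 for the difference, and 20 for T-like against NK-like and ILC2-like sums (6). With at least 500 genes they were 241, 183 and 237 for both tumors and the difference, 106 for all barcodes of the Tumor 2 Border (358) and 3 for T-like against NK-like and ILC2-like sums. Without C1q-marked barcodes, an alternative chosen after seeing the data, they were 207, 253 and 330. A fit of C1q macrophage-like barcodes alone gave 8 calls, where that of all macrophage-like barcodes gave 155. Stricter gates gave 55 in macrophage-like barcodes, 98 for T-like against B-like (318), 1 against NK-like and ILC2-like, 831 against macrophage-like sums (1253) and 377 for dendritic-like sums (725). With no library term the T-like comparison with NK-like and ILC2-like sums gave 22.

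Leaving out each library gave 274 to 565, 286 to 531, 428 to 719 and 1701 to 2679 calls in the neutrophil-like comparisons, 103 to 178 in macrophage-like barcodes, and 1914 to 2867, 1653 to 2068 (2059) and 207 to 492 over all barcodes. For classes the ranges were 128 to 331, 2 to 9, 846 to 1380, 505 to 741, 1917 to 2382 (2123, neutrophil-like) and 1246 to 2053 (1660, tumor epithelial-like). Where an arm kept 1 sample, it was assumed to vary like the others.

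Whole Tumor arrays share numbers between tumors. Their deviations correlated by 0.0116, 0.00696 and -0.0008 in neutrophil-like barcodes and by 0.116, 0.126 and -0.030 over all barcodes, not every array correlated best with its own number, and the arrays share only a number. With the replicate block 2224 genes were called in neutrophil-like barcodes (1136 higher) and 2685 over all barcodes (1530 higher), and none of the 11 members' differences it could test changed its call, Ctla4 over all barcodes not being among them. Few molecules were counted for Lag3 (42 UMIs), Tigit (63) and Ctla4 (65), which limits the precision of their values.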

Other observations

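Tnfrsf9, which encodes the costimulatory receptor 4-1BB, had 430 UMIs in ILC2-like barcodes, 337 in C1q macrophage-like and 27 in T-like barcodes. Btla, an inhibitory receptor often read in lymphocytes, was highest in conventional dendritic-like barcodes (35 UMIs, 360 CPM), followed by B-like barcodes (149 CPM), against 28.3 CPM in T-like barcodes. Cd40, which receives T cell help on antigen-presenting cells, was highest in mature dendritic-like barcodes (464 CPM), against 36.5 CPM in B-like barcodes. With wider marker lists the T-like class grew from 56 to 69 barcodes and the ILC2-like class from 53 to 94. These values were chosen after they were seen and were not tested.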
